A study of Mus musculus with 8 samples.

Results

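The genes of the serotonin receptors were followed in whole brain of mice that lack SIRT1 in the brain and of their wild-type littermates. The set was defined by name as 10 genes (Htr1a, Htr1b, Htr1d, Htr2a, Htr2b, Htr2c, Htr3a, Htr4, Htr5a and Htr7), and its members were all probe sets whose single gene symbol was one of them. Of these, 9 genes were present on 10 probe sets, out of 12393 genes and 22626 tested probe sets, with Htr1a on 2 probe sets and each of the others on 1. Htr2a had no probe set with its symbol alone and was not analysed here. Total RNA came from male C57/B6 mice aged 3 months, 4 brain-specific SIRT1 knockouts (BSKO) and 4 wild-type littermates (WT), and each RNA went to its own Affymetrix Mouse430A_2 array. SIRT1 is an NAD-dependent protein deacetylase. The labels do not say which promoter drives the deletion, which part of the gene is lost or how many of the brain's cells lose it, and they name no treatment. The deposited values are log2 values centred on the median of each probe set over the 8 arrays. Such values carry differences but no absolute level, so the labelled tissue could not be checked by the level of brain markers, and no receptor can be called more or less abundant than another.

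Serotonin is made by neurons of the raphe nuclei in the brainstem, whose axons reach nearly all of the brain, and its action depends on which receptor the target cell carries. Receptors of the 5-HT1 and 5-HT5 classes couple to Gi/o proteins and lower cyclic AMP, those of the 5-HT2 class couple to Gq and phospholipase C, and 5-HT4, 5-HT6 and 5-HT7 couple to Gs and raise cyclic AMP. The 5-HT3 receptor is the exception, a cation channel of the Cys-loop family that serotonin opens directly. In a homogenate of whole brain, fewer cells of a type and less RNA per cell cannot be told apart.

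The promoters of Htr1a and Htr2c are shown because both genes were lower in BSKO in the comparison without BSKO 2 described next. Each window runs from 250 bases before to 50 bases after the annotated start, read 5′ to 3′ on the gene's strand (RefSeq, GRCm38.p6). That of Htr1a is chr13:105443443-105443742 and that of Htr2c is chrX:146962263-146962562, both on the plus strand. Capitals mark the GC box GGGCGG bound by Sp1 family factors and the CCAAT box, each searched on both strands.
Htr1a: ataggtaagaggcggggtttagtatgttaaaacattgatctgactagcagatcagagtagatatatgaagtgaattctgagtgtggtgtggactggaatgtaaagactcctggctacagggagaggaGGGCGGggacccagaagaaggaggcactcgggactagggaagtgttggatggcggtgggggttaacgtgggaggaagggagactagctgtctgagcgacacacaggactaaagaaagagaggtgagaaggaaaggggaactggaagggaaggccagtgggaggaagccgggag
Htr2c: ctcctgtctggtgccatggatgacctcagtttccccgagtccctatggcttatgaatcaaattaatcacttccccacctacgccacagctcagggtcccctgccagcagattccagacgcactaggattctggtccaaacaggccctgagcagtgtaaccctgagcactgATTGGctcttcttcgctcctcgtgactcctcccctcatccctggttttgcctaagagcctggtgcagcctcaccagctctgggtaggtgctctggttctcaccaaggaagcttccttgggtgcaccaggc
The Htr1a window held 1 GC box, whose first base lies 123 bases before the start, and no CCAAT box. The Htr2c window held 1 CCAAT box, on the minus strand and beginning 80 bases before the start, and no GC box. Neither window held the TATA box TATAAA, the cyclic AMP response core TGACG or an E-box (CANNTG, any overlap counted), all searched on both strands. Among 32851 mouse promoter windows of 300 bases, 35.7% held GGGCGG, 37.4% CCAAT, 13.6% TATAAA, 20.8% TGACG and 72.3% CANNTG. The windows of Htr1a and Htr2c had a GC content of 52.3% and 56.3%, against a median of 52.7%, and the members whose windows were analysed ran from 41% in Htr2b to 81% in Htr7. No window was listed for Htr3a, and no window of Htr4 was analysed here.

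BSKO 2 stood apart from the other arrays over the whole table, with an SD of 0.831 over all tested probe sets against 0.150 to 0.314 on the other 7. Its 5′ probe sets for Actb and Gapdh lay -2.44 and -2.43 from the 3′ ones, against -0.104 to 0.489 on the other arrays, a sign of RNA quality. BSKO 2 lay outside the range of the other 7 arrays for 5 of the 10 receptor probe sets and for 75.2% of all tested probe sets. The receptor differences are therefore given for all 8 arrays and again without BSKO 2. The Sirt1 probe set 1418640_at differed by -0.50 with 8 arrays and by -0.15 without BSKO 2 (limma adjusted p = 0.549 and 0.428), and as the deleted part is not given it checks no label.

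Without BSKO 2, the probe sets of Htr3a and Htr2c and 1 of the 2 probe sets of Htr1a fell in BSKO brain, by 1.79-fold to 1.87-fold. The other Htr1a probe set was 1.21-fold lower and did not pass. No receptor probe set rose, where 0.495% of all did. The 3 called probe sets of 10 stand beside 1.63% of all tested probe sets in this fit (called means an adjusted p under 0.05 by limma, after the Benjamini-Hochberg method across the table); for calls lower in BSKO the share was 1.14%. With all 8 arrays no receptor probe set passed by limma, where 3 had an unadjusted p under 0.05 (background 10.8%). Of all probe sets 0.0309% passed, 0.00884% higher and 0.0221% lower in BSKO, so this fit called almost nothing anywhere. The median difference of the 10 receptor probe sets was -0.091 with 8 arrays and -0.074 without BSKO 2, beside 0.022 and 0.0089 over all probe sets. The genotypes did not overlap for 2 of the 10 with all 8 arrays (background 12.3%), both lower in BSKO (6.66% of all were lower and 5.67% higher). Without BSKO 2 they did not overlap for 5 of the 10 (background 19.5%), 4 of them lower (background 10.3%) and 1, Htr2b, higher (background 9.21%). At an unadjusted p under 0.05 there were 5 of the 10 without BSKO 2 (background 19.8%).

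**Figure D1:**
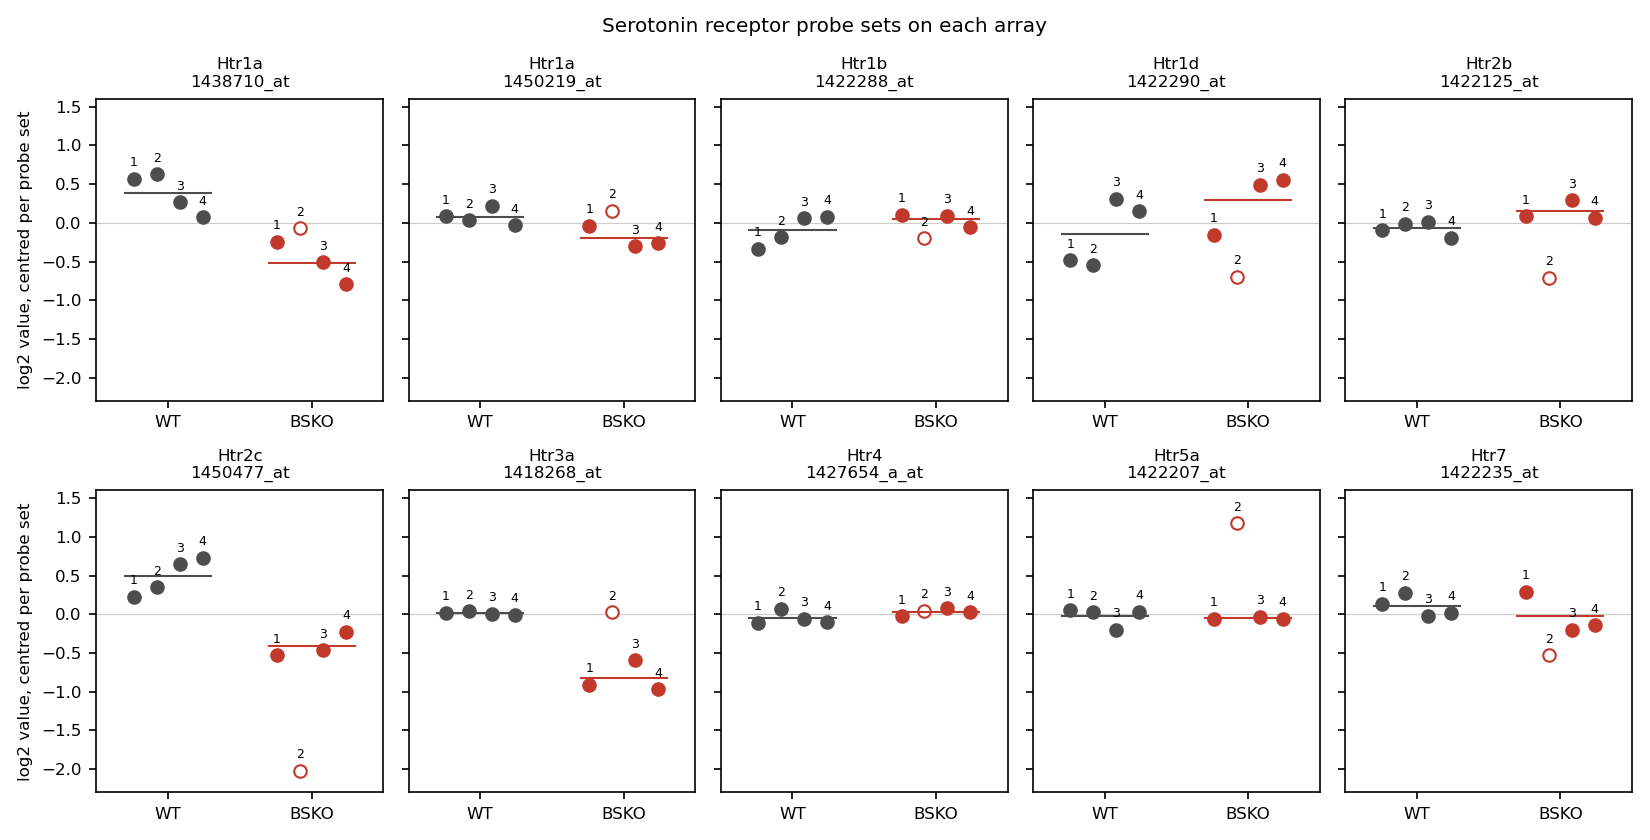
Log2 values centred per probe set (y axis) of the 10 receptor probe sets on each array, with WT in grey and BSKO in red, replicate numbers above the points, BSKO 2 as an open point, and lines at the mean of the 4 WT arrays and of BSKO 1, 3 and 4. For Htr3a the WT points lie between -0.0090 and 0.037 with BSKO 2 among them, while BSKO 1, 3 and 4 lie between -0.97 and -0.59.

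Htr3a encodes the subunit that the 5-HT3 channel needs in order to form, and in the forebrain it is expressed in a class of inhibitory interneurons. On probe set 1418268_at the WT arrays 1 to 4 were at 0.023, 0.037, 0.0090 and -0.0090. BSKO 1 was at -0.91, BSKO 3 at -0.59 and BSKO 4 at -0.97, while BSKO 2 was at 0.027. Thus 3 BSKO arrays lay far below every WT array and BSKO 2 lay among them. The mean was 0.015 ± 0.020 (SD, n = 4) in WT and -0.82 ± 0.20 (n = 3) in BSKO without BSKO 2, a difference of -0.84 (SE 0.096) or 1.79-fold (limma adjusted p = 0.0166). With all 8 arrays it was -0.63 (SE 0.21, limma adjusted p = 0.355). The exact two-sided permutation p was 0.0571 without BSKO 2, the smallest that 4 and 3 arrays allow, and 0.114 with all 8. The call without BSKO 2 was lost with trend and robust variance settings (adjusted p = 0.294), where the difference is the same by construction. Htr3b, another subunit of the channel and the next protein-coding gene in the annotation, differed by 0.023 without BSKO 2 (95% confidence interval -0.19 to 0.23, limma adjusted p = 0.915).

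Htr1a encodes the 5-HT1A receptor, the autoreceptor of raphe neurons and an inhibitory receptor of hippocampal and cortical neurons. Its probe set 1438710_at was at 0.57, 0.63, 0.27 and 0.073 on WT 1 to 4. On BSKO 1 to 4 it was at -0.24, -0.073, -0.51 and -0.79. All 4 BSKO arrays lay below all 4 WT arrays, and WT 4 and BSKO 2 were the closest. The equal size of these 2 values comes from the centring, as they are the middle arrays. Without BSKO 2 the difference was -0.90 (SE 0.17), or 1.87-fold, with an adjusted p of 0.0489 by limma, just inside the threshold. With all 8 arrays it was -0.79 (SE 0.19, limma adjusted p = 0.228), with an exact permutation p of 0.0286, the smallest that 4 and 4 arrays allow.

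The other Htr1a probe set, 1450219_at, gave a smaller difference in the same direction. It was at 0.084, 0.031, 0.22 and -0.031 on WT 1 to 4 and at -0.036, 0.16, -0.31 and -0.26 on BSKO 1 to 4. BSKO 2 lay among the WT arrays, and BSKO 1 was just below WT 4. The difference was -0.28 (SE 0.094) without BSKO 2 and -0.19 (SE 0.13) with all 8 arrays (limma adjusted p = 0.166 and 0.576). As the mean of both probe sets Htr1a differed by -0.59 without BSKO 2 (limma adjusted p = 0.0474 over genes) and by -0.49 with 8 arrays (adjusted p = 0.261). The size of the Htr1a difference thus depended on the probe set.

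Htr2c encodes the 5-HT2C receptor, which acts in feeding and mood circuits and is also made at a high level in the epithelium of the choroid plexus. Probe set 1450477_at was at 0.22, 0.35, 0.65 and 0.73 on WT 1 to 4. BSKO 1 was at -0.53, BSKO 2 at -2.02, BSKO 3 at -0.46 and BSKO 4 at -0.22. Every BSKO array lay below every WT array, and BSKO 2 was the lowest by a wide margin. The difference was -0.89 (SE 0.14) without BSKO 2, or 1.86-fold (limma adjusted p = 0.0299). With all 8 arrays it was larger and less certain, at -1.30 (SE 0.37, limma adjusted p = 0.295, exact permutation p = 0.0286). After quantile normalization the call without BSKO 2 was lost (adjusted p = 0.0672) although the difference was -1.04.

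The other receptors of the Gi/o class did not pass the test in either fit. Htr1b (1422288_at), the terminal autoreceptor gene, was at -0.33, -0.19, 0.058 and 0.079 on WT 1 to 4 and at 0.10, -0.20, 0.089 and -0.058 on BSKO 1 to 4, and the groups overlapped. It differed by 0.079 with 8 arrays (95% confidence interval -0.22 to 0.38, limma adjusted p = 0.784) and by 0.14 without BSKO 2 (interval -0.12 to 0.41, adjusted p = 0.531). Htr1d (1422290_at), a related receptor of nerve terminals, was at -0.48 and -0.55 on WT 1 and 2 and at 0.31 and 0.15 on WT 3 and 4. On BSKO 1 to 4 it was at -0.15, -0.70, 0.49 and 0.56, so that in both genotypes replicates 3 and 4 were the higher ones. Its difference was 0.19 with 8 arrays (interval -0.54 to 0.92, limma adjusted p = 0.787). Without BSKO 2 it was 0.44 (adjusted p = 0.383), with an interval from -0.16 to 1.04 that was the widest of the 10 in that fit. Htr5a (1422207_at), which encodes the 5-HT5A receptor of forebrain neurons, was at -0.20 to 0.053 on the WT arrays and at -0.060 to -0.029 on BSKO 1, 3 and 4, but at 1.18 on BSKO 2. This 1 array turned its difference from -0.028 (interval -0.21 to 0.16) to 0.28 (interval -0.35 to 0.90), with limma adjusted p values of 0.881 and 0.666.

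Htr2b (1422125_at), a Gq-coupled receptor better known from heart and gut than from brain, was at -0.098, -0.015, 0.015 and -0.19 on WT 1 to 4. BSKO 1, 3 and 4 were at 0.084, 0.29 and 0.068, above every WT array, and BSKO 2 was at -0.71, below every one. Its difference was 0.22 without BSKO 2 (interval 0.021 to 0.42, limma adjusted p = 0.214) and 0.0055 with 8 arrays (interval -0.46 to 0.47, adjusted p = 0.992). Among the Gs-coupled receptors, Htr4 (1427654_a_at) had the narrowest range of the 10 over all 8 arrays together, from -0.11 to 0.073 on the WT arrays and from -0.025 to 0.078 on the BSKO arrays. It differed by 0.079 with 8 arrays (interval -0.12 to 0.28, limma adjusted p = 0.701) and by 0.074 without BSKO 2 (interval -0.092 to 0.24, adjusted p = 0.605). Htr7 (1422235_at), a receptor of thalamic, hypothalamic and hippocampal neurons, was at 0.14, 0.28, -0.020 and 0.020 on WT 1 to 4 and at 0.29, -0.53, -0.20 and -0.14 on BSKO 1 to 4. It differed by -0.25 with 8 arrays (interval -0.64 to 0.15, limma adjusted p = 0.578) and by -0.12 without BSKO 2 (interval -0.43 to 0.19, adjusted p = 0.660).

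**Figure D2:**
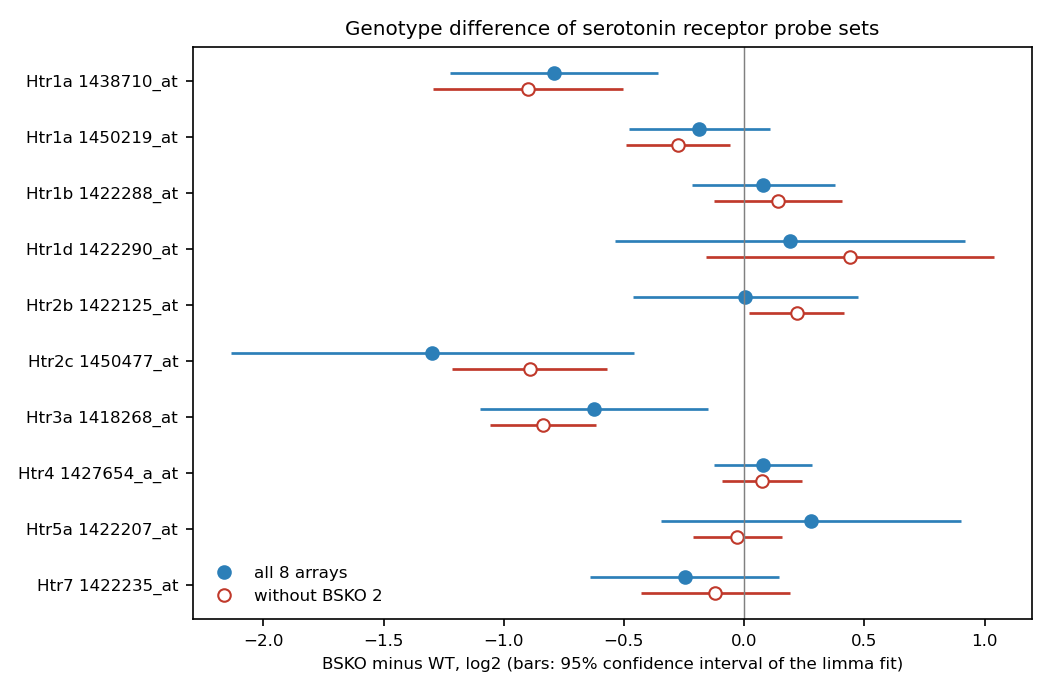
Log2 difference of BSKO minus WT (x axis) for each receptor probe set with the 95% confidence interval of the limma fit, for all 8 arrays (filled, blue) and without BSKO 2 (open, red). The intervals of Htr1a 1438710_at, Htr2c and Htr3a lie below 0 in both fits, and the interval of each of the 10 probe sets is narrower without BSKO 2.

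The calls of Htr3a, Htr1a and Htr2c depended on which further array was left out as well as on BSKO 2. When a second array was left out beside BSKO 2, Htr3a passed in 4 of 7 fits (adjusted p = 0.00987 to 0.0736), and Htr1a and Htr2c each in 1 of 7, that without BSKO 1 (adjusted p = 0.0291 to 0.136 and 0.0372 to 0.0877). Htr3a was lost without WT 1, WT 2 or WT 4 (adjusted p = 0.0568, 0.0736 and 0.0650), where fewer arrays enter. Their differences stayed between -0.95 and -0.77 for Htr3a, between -1.04 and -0.76 for Htr1a 1438710_at and between -0.98 and -0.81 for Htr2c in these 7 fits.

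**Figure D3:**
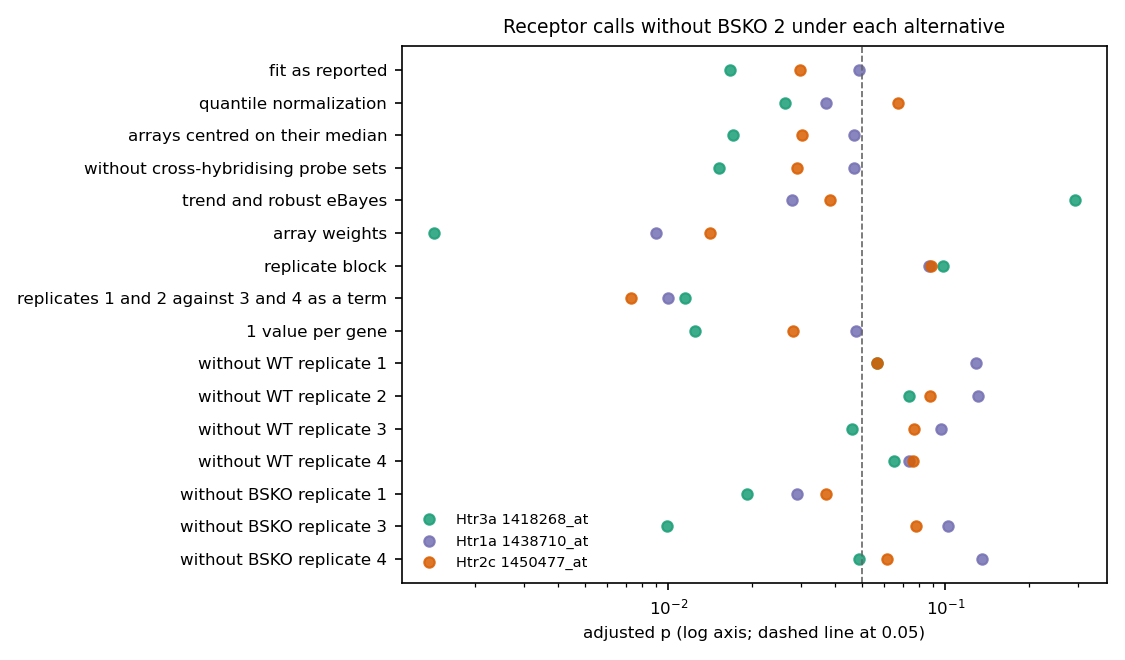
Adjusted p (log axis) of the called Htr3a, Htr1a and Htr2c probe sets without BSKO 2, in the fit as reported and under each alternative (y axis), with a dashed line at 0.05. All 3 pass in the fit as reported (0.0166, 0.0489 and 0.0299), none passes without WT 1, WT 2 or WT 4, and the highest value is 0.294 for Htr3a with trend and robust settings.

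Replicates 1 and 2 lay apart from replicates 3 and 4, in the same direction in both genotypes, for Htr1d, Htr2c and Htr1a 1438710_at. For Htr1b the pairs were apart in WT but overlapped in BSKO. The labels name no batch that matches. Over the WT arrays alone, the pairs did not overlap for 6 of the 10 receptor probe sets, beside 49.8% of all tested probe sets, so this was not particular to the receptors. WT 3 and 4 lay above WT 1 and 2 by 0.74 for Htr1d, 0.40 for Htr2c and 0.33 for Htr1b, while for Htr1a 1438710_at the same difference was -0.43. The genotype difference was therefore also taken within each pair. Within replicates 3 and 4 it was -0.78 for Htr3a, -0.82 for Htr1a 1438710_at and -1.03 for Htr2c. BSKO 1 against WT 1 and 2, with BSKO 2 left out, gave -0.94, -0.84 and -0.81. With BSKO 2 kept, replicates 1 and 2 gave -0.47 for Htr3a, -0.76 for Htr1a 1438710_at and -1.56 for Htr2c. The direction was the same in both pairs with and without BSKO 2. For Htr1a 1438710_at and Htr2c no other direction was possible, as every BSKO array lay below every WT array. The same holds for Htr3a without BSKO 2. The sizes for Htr3a and Htr2c were closer between the pairs without BSKO 2, where 1 BSKO array is left in the first pair. For Htr7 the values without BSKO 2 were -0.17 and 0.086, and for Htr1b -0.053 and 0.36.

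Of the serotonin receptor genes outside the defined set, Htr1f, Htr3b, Htr5b and Htr6 were measured with 1 probe set each, and none passed in either fit by limma. At an unadjusted p under 0.05, Htr5b alone was lower, with -1.0 over 8 arrays (adjusted p = 0.278) and -0.93 without BSKO 2 (adjusted p = 0.142). It was at 0.34, 0.39, 0.15 and -0.063 on WT 1 to 4 and at 0.063, -0.99, -1.26 and -0.98 on BSKO 1 to 4, so BSKO 1 lay among the WT arrays. Htr6, a Gs-coupled receptor of the striatum, was at -1.35 on BSKO 2 and at -0.17 to 0.48 on all other arrays.

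Among the genes that make, move and break down serotonin there was no call, which does not show that they were unchanged. Of 16 listed genes 11 were measured, on 15 probe sets. None passed in either fit by limma (smallest adjusted p = 0.361 with 8 arrays and 0.113 without BSKO 2), and 8 of the 11 had a lower mean in BSKO in each fit. The serotonin transporter gene Slc6a4 was at 1.75 and 1.98 on WT 1 and 2, at 0.042 and -0.32 on WT 3 and 4, and at -0.35 to 0.40 in BSKO. Its WT arrays thus spanned more than its difference of -1.04 without BSKO 2 (limma adjusted p = 0.340), which was -0.89 with 8 arrays (adjusted p = 0.533). Slc29a4, a transporter that takes up monoamines, differed by -0.62 (adjusted p = 0.113) and by -0.53 with 8 arrays (adjusted p = 0.361). Maoa, the monoamine oxidase gene, differed by -0.28 (adjusted p = 0.121) and by -0.44 with 8 arrays (adjusted p = 0.403). However, on BSKO 1 its deposited figure is identical to its BSKO group mean, and Maoa is the 1 probe set of the table that is not centred. This group mean includes BSKO 2, so the Maoa difference without BSKO 2 may still carry that array. Tph2, the synthesis enzyme of brain serotonin neurons, was not analysed here.

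Genes of the signalling steps below the receptors showed no call either, apart from 1 scaffold gene. Among Gi/o proteins and effectors 10 genes were measured (median difference without BSKO 2 of 0.052), among Gq ones 10 (0.080) and among Gs ones 11 (0.080), beside 0.015 over all 12393 genes, and no probe set passed. The nearest was Kcnj3, a subunit of the potassium channel that Gi/o-coupled receptors open, with -0.45 (limma adjusted p = 0.0515 without BSKO 2 and 0.563 with all 8). Rgs2, a brake on Gq signalling, differed by 0.60 and 0.25 on its probe sets 1419247_at and 1419248_at without BSKO 2 (adjusted p = 0.135 and 0.280), and by 0.25 and 0.18 with 8 arrays. Prkar1a, a regulatory subunit of protein kinase A, differed by -0.37 on 1452032_at (adjusted p = 0.123) but by -0.033 on 1425550_a_at (adjusted p = 0.844), and by -0.36 and -0.030 with 8 arrays. Of the receptor partner proteins 8 genes were measured on 14 probe sets, and 1 probe set passed, where 1.63% of all did. This was Mpdz, a multi-PDZ scaffold known to bind the end of the 5-HT2C receptor. Its probe set 1418663_at was at 0.28, 0.27, 0.37 and 0.25 on WT 1 to 4 and at -0.25, -1.98, -0.38 and -0.35 on BSKO 1 to 4. It fell by 0.61 (SE 0.067, limma adjusted p = 0.0157) without BSKO 2, and with 8 arrays it differed by -1.03 (adjusted p = 0.374). Its second probe set, 1418664_at, differed by -0.48 (adjusted p = 0.0612). The 2 probe sets of S100a10, which encodes the p11 protein that brings 5-HT1B and 5-HT4 receptors to the membrane, differed by -0.56 and -0.47 (adjusted p = 0.0921 and 0.208).

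Markers of the cells that carry the fallen receptors were set beside them on each array. The list of 11 measured choroid plexus genes had a median of 0.049, 0.070, -0.063 and -0.072 on WT 1 to 4, of 0.31, 0.15 and -0.035 on BSKO 1 to 3 and of -2.02 on BSKO 4. BSKO 4 was the lowest array for 16 of the 17 probe sets of the list, Ttr, Kl and Folr1 included, and none of the 17 passed in either fit by limma. Without BSKO 2, all 11 genes of the list had a lower mean in BSKO, but this mean includes BSKO 4. On BSKO 1 and 3 the list median (0.31 and -0.035) was not below the WT range of -0.072 to 0.070. Htr2c was higher on BSKO 4, at -0.22, than on any other BSKO array. Without BSKO 2 and BSKO 4 the Htr2c difference was -0.98 (limma adjusted p = 0.0613). The part of choroid plexus cells in the Htr2c result was not tested.

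For Htr1a, the median of 9 dentate gyrus granule neuron genes was 0.56, 0.45, 0.038 and 0.0094 on WT 1 to 4 and -0.35 to -0.24 in BSKO, and 4 of its 19 probe sets fell without BSKO 2 (1 each of Tdo2 and Stxbp6 and 2 of C1ql3), beside 1.14% of all probe sets called lower. The median of 6 serotonin neuron genes was 1.49 and 1.20 on WT 1 and 2, 0.0068 and -0.11 on WT 3 and 4 and -0.50 to 0.032 in BSKO, with no call. The 4 measured CA neuron genes had a median of -0.10 to -0.0013 in WT and -0.012 to 0.18 in BSKO. Htr1a 1438710_at and the dentate median were both higher on every WT array than on every BSKO array. This was not particular to the dentate list. The medians of the receptor partner list, of meningeal and fibroblast genes (0.14 to 0.74 in WT, -0.57 to -0.18 in BSKO) and of astrocyte genes (0.0364 to 0.0978 and -0.323 to 0.0357) also did so. The part of these cells in the Htr1a result was not tested.

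For Htr3a, the median of 11 genes of its interneuron class was -0.0085, 0.0085, 0.12 and 0.15 on WT 1 to 4 and -0.22, -0.18, -0.14 and 0.074 on BSKO 1 to 4. On BSKO 4, where Htr3a was lowest, this median was the highest of the BSKO arrays. Of the list's 15 probe sets the 3 of Nr2f2, a nuclear receptor gene of these interneurons and also of vessels, fell without BSKO 2 (-1.03 to -1.25, limma adjusted p = 0.0170 to 0.0281), beside 1.14% of all probe sets called lower. Of the 11 genes 7 had a lower and 4 a higher mean in BSKO without BSKO 2, with Vip at -0.17 (adjusted p = 0.354) and Cck at -0.20 (adjusted p = 0.281), and Lamp5 at 0.30 (adjusted p = 0.454) and Npy at 0.28 (adjusted p = 0.594). On 2 Nr2f2 probe sets, 1416158_at and 1416160_at, BSKO 2 (0.068 and -0.068) lay nearer the WT arrays than the other BSKO arrays did, though on 1416160_at below every WT array. On the other, 1416159_at, BSKO 2 was at -0.53, among the other BSKO arrays (-0.96 to -0.42). For Htr1d, the median of 8 striatal projection neuron genes was -1.79 and -1.70 on WT 1 and 2, -0.046 and -0.061 on WT 3 and 4, and 0.097, -8.9e-05, 1.12 and 0.91 on BSKO 1 to 4, so both were higher in replicates 3 and 4. For Htr7, the median of 9 thalamic neuron genes was 0.33, 0.31, -0.15 and -0.11 on WT 1 to 4 and 0.47, -0.051, -1.06 and -0.47 on BSKO 1 to 4. That of 11 hypothalamic neuron genes had another pattern. It was -0.31, -0.24, 0.069 and -0.058 on WT 1 to 4 and 1.13, 1.58, -0.090 and -0.13 on BSKO 1 to 4. The 10 pan-neuronal genes had a median between 0.0058 and 0.057 in WT and between -0.17 and 0.023 in BSKO. The part of these cells in the receptor values was not tested.

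**Figure D4:**
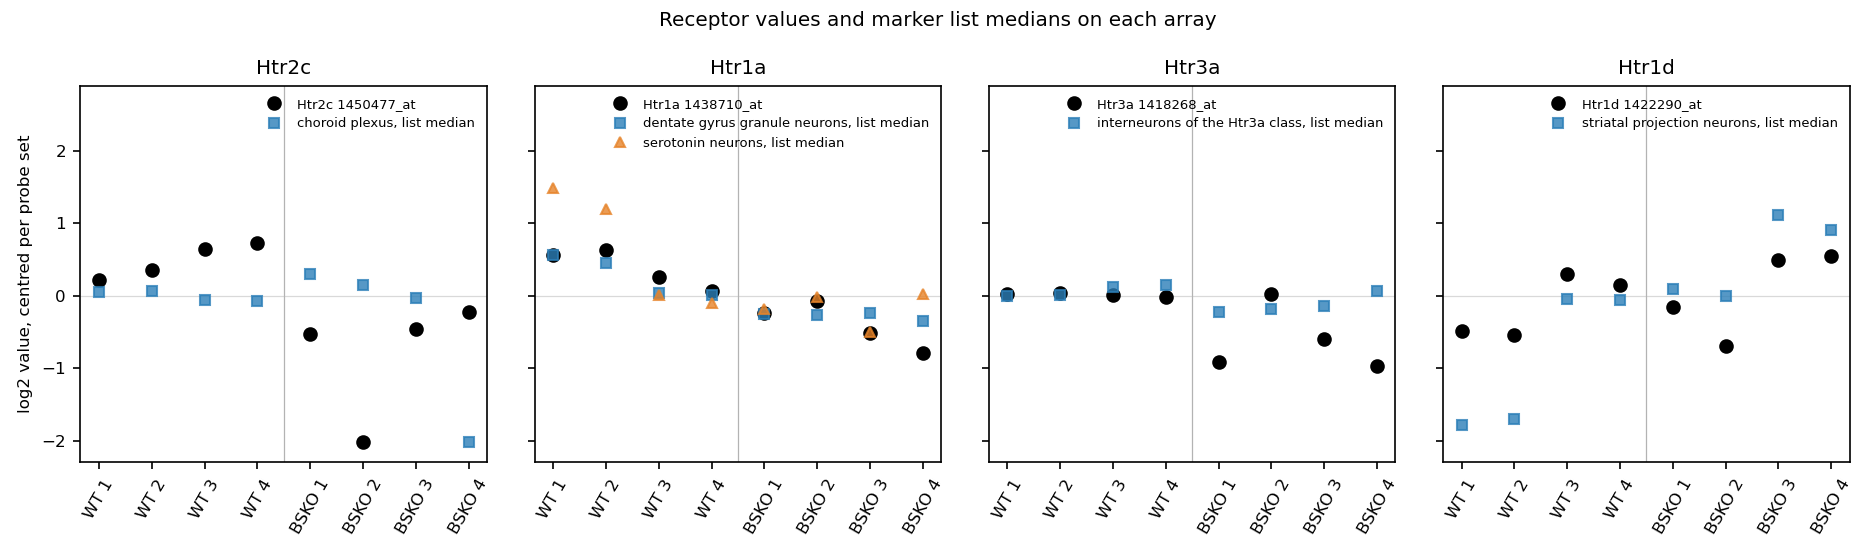
Log2 values centred per probe set (y axis) on each array (x axis) for 4 receptor probe sets (black) with the median of a marker list (blue squares) and, for Htr1a, of the serotonin neuron list (orange triangles). The choroid plexus median drops to -2.02 on BSKO 4 while Htr2c is at -0.22 there, and the striatal median and Htr1d are both higher in replicates 3 and 4 than in replicates 1 and 2.

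The genes with the profile most like each fallen receptor were sought among 20380 probe sets with 1 gene symbol, by Pearson's r as a description of these arrays. Htr2c was closest to Cpd, a carboxypeptidase gene, over all 8 arrays (r = 0.997) and over the 7 without BSKO 2 (r = 0.994). Cpd was at 0.17, 0.41, 0.54 and 0.60 on WT 1 to 4 and at -0.41, -1.91, -0.35 and -0.17 on BSKO 1 to 4. It fell without BSKO 2 (-0.74, limma adjusted p = 0.0299), which is no separate result, as Cpd was picked by its likeness to Htr2c. Next to Htr2c over 8 arrays were Ypel1 (r = 0.993) and Mapk8 (r = 0.992), and over 7 Bzw1 (r = 0.991) and Capza2 (r = 0.988). Htr3a was closest over 8 arrays to Sap30 (r = 0.977), Ccdc71l (r = 0.970) and Brcc3 (r = 0.967), in all of which BSKO 2 lay near the WT arrays, and over 7 to Rpe, Gjd2 and Sh3gl2 (r = 0.990 to 0.994). Htr1a 1438710_at was closest over 8 to Npr3 (r = 0.977), Slco3a1 (r = 0.974) and Fuca2 (r = 0.973), and over 7 to Adss, Mycl and Tnfrsf21 (r = 0.985 to 0.989). With so few arrays such values are common: 55 to 1016 probe sets passed an r of 0.9 over 8 arrays and 343 to 454 over 7. No gene but Cpd was named for the same receptor in both searches.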

How the data were processed

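The authors deposited 1 table of log2 values for 22690 probe sets on 8 arrays, made with RMA per the submitters' processing notes (version not given in the sources used here). In the values, 22689 probe sets had a median within 1e-05 of 0, a centring that no label records. No filter on dim probe sets was possible, since centred values carry no brightness. The 64 control probe sets were left out and 22626 tested. Gene symbols were those of the platform annotation, matched by Entrez number to RefSeq GRCm38.p6 (20380 probe sets with 1 symbol, 691 with several, 1555 with none or not listed; 20351 matched, with 0 symbols changed).

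BSKO was compared with WT with limma 3.58.1 in R 4.3.3 (lmFit, eBayes, two-sided, no covariate), p values adjusted across the table by the Benjamini-Hochberg method and called under 0.05, with 8 arrays and without BSKO 2. Each array is 1 animal per the labels, and the number of arrays limits the precision. Exact permutation tests ran over 70 and 35 arrangements with scipy 1.17.1. Differences are on the log2 scale. A gene's value in a list is the mean of its probe sets, and calls are per probe set. The members, lists and alternatives were chosen with earlier results of these data known. The rule for named genes took every member, up to 3 or 4 genes per list by smallest p without BSKO 2 with all that were called, and the 3 genes most like each called member. Further genes, such as Slc6a4, Vip, Cck, Lamp5, Npy, Ttr, Kl and Folr1, were named after their values were seen. Alternatives were quantile normalization, centring of arrays, leaving out cross-hybridising probe sets, trend and robust variance, array weights, a replicate block, a replicate term, 1 value per gene, another threshold and leaving out each array. The scripts were tested on simulated data.

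Same-numbered arrays correlated in their deviations from the group means by 0.086, 0.056, 0.14 and 0.13 over all tested probe sets, so the numbers were not taken as pairs.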

Additional observations from a re-analysis of the deposited data

Results flagged for a closer look

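In groups of 4 arrays, a sample was singled out when its gap to the nearest other array exceeded Dixon's critical share of the group's range for 4 samples, which chance gives in about 1 of 20 groups. Of 40 groups examined, 28 of receptor probe sets and 12 of marker list medians, 4 met this, and 2 of the 4 are on BSKO 2. Htr2c was at -2.02 on BSKO 2, below the other BSKO arrays. Htr5a was at 1.18 on BSKO 2, above all other arrays. Htr5a was also at -0.199 on WT 3, below the other WT arrays. The choroid plexus median was at -2.02 on BSKO 4, against -0.035 to 0.31 on the other BSKO arrays.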

How the results depend on the processing

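With all 8 arrays, 7 probe sets of the whole table were called. There were 66 at a threshold of 0.10, 678 after quantile normalization, 108 with trend and robust settings, 2617 with array weights and 84 with a term that separates replicates 1 and 2 from 3 and 4, and 0 to 369 when 1 array was left out. With the replicate number as a block 0 were called (limma, 2121 at an unadjusted p under 0.05). Without BSKO 2, 369 were called, 1131 at a threshold of 0.10, 3005 with array weights, 744 with the replicate term and 0 with the replicate block (3672 at an unadjusted p under 0.05), and 19 to 1069 with a further array left out. The count of receptor probe sets called with 8 arrays went from 0 to 2 after quantile normalization (Htr1a and Htr2c), 4 with array weights and 1 with the replicate term (Htr1a), and 0 to 3 with 1 array left out. Without BSKO 2 it went from 3 to 0 with the replicate block (6 at an unadjusted p under 0.05), where the adjusted p was 0.0871 to 0.0983 for the 3, and 0 to 3 with a further array left out. The called Htr3a, Htr1a and Htr2c probe sets kept their direction in all 15 alternatives without BSKO 2 and all 16 with 8 arrays. Many of these could not turn it. Leaving out arrays cannot do so for the called Htr1a and Htr2c probe sets, nor for Htr3a without BSKO 2, as the groups do not overlap. With 8 arrays the replicate block, the replicate term and the trend and robust settings keep the difference by construction. The sign turned for Htr2b with each array centred (-0.0054) and when 1 array was left out (-0.11 to 0.22), for Htr5a with array weights (-0.026) and when 1 array was left out (-0.028 to 0.38), and for Htr1b when 1 array was left out (-0.00010 to 0.14). The cause of these changes was not tested. Some of these fits also have fewer arrays or residual degrees of freedom. With 8 arrays, array weights gave BSKO 2 a weight of 0.0456 and BSKO 4 one of 3.69.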

Other observations

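The genes next to the fallen receptors in the annotation were looked at after the values were seen. Il13ra2, the protein-coding gene after Htr2c, differed by -0.96 without BSKO 2 (limma adjusted p = 0.0800), and the 3 probe sets of Amot, before it, by -0.25 to 0.029 (adjusted p = 0.312 to 0.912). Beside Htr1a, Ipo11 differed by 0.050 (adjusted p = 0.788). Near Htr3a, the 2 probe sets of Zbtb16 differed by -0.29 and -0.14 (adjusted p = 0.421 and 0.743).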
